A study of Mus musculus with 16 samples.

Results

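The prion protein gene Prnp, the tau gene Mapt and 5 further genes of structural microtubule-associated proteins (Map1a, Map1b, Map2, Map4 and Map6) were followed through the cell classes of the mouse hippocampus. They are 7 of the 32285 genes counted, were chosen by symbol with earlier results of these data known, and were read in single nuclei of 16 libraries. The libraries held nuclei from the hippocampus of female mice aged 9 months, prepared with a droplet kit that reads the 3' ends of transcripts. The labels cross the Ch25h genotype (Ch25h+/+ or Ch25h-/-) with the tau state (Tau+ or Tau-) into 4 groups of 4 libraries, where Ch25h encodes the enzyme that makes 25-hydroxycholesterol. The groups share sex, age and tissue. The labels name no tau line, no promoter driving tau and no mutation, and the 32285 genes are mouse genes, so the tau state of a library was taken from its label alone.

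Tau, MAP1A, MAP1B, MAP2, MAP4 and MAP6 bind along microtubules and influence how stable the filaments are and how they are spaced. In neurons tau is known as an axonal protein and MAP2 as a protein of dendrites and cell bodies, MAP1B is prominent in growing axons, MAP4 is the widely expressed relative of tau and MAP2, and MAP6 protects microtubules from cold. The prion protein is not a microtubule-associated protein: it is a glycoprotein anchored in the cell surface by a lipid, made by neurons and glia, and its misfolded form is the agent of prion disease. As background to the design, some tau lines carry tau in a vector built from the mouse Prnp gene. Whether such a vector was present was not tested, and UMIs (unique molecular identifiers, each a counted transcript molecule) from one would not be told apart here from UMIs of the endogenous gene.

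The genes are spread over 6 chromosomes of the GRCm38 build in the GENCODE M21 annotation. Prnp lies at chr2:131909928-131938429 on the plus strand, and in its coding transcript all 762 coding bases lie in exon 3. Mapt lies at chr11:104231390-104332090, Map1a at chr2:121289600-121310832, Map2 at chr1:66175273-66442583, Map4 at chr9:109931460-110083955 and Map6 at chr7:99267447-99337137, all on the plus strand, and Map1b lies at chr13:99421446-99516540 on the minus strand. Mapt, Map1a, Map2 and Map4 each overlap an annotated gene on the other strand, Gm11659, Ppip5k1 with Gm14978, Gm10558 and Gm43732 in that order, and Map6 overlaps Gm45591 on its own strand. Whether counting used strand is not given in the sources used here, so reads of overlapping genes may not be fully separated.

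The 250 bases before the transcription start are shown for Prnp, the gene that differed with tau state in the most classes, and for Map1b, which had its highest levels in neurons and was called in no class. Promoter sequences were taken from RefSeq (GRCm38.p6), where 5 of the 7 genes had one. The RefSeq start used for Map1b lies upstream of the start of the GENCODE gene at 99516540. The first covers chr2:131909678-131909927 on the plus strand and the second chr13:99516603-99516852 on the minus strand, both written 5′ to 3′. Capitals mark the matches on either strand to 4 motifs: TATAAA (the letters of the TATA box), the CCAAT box, GGGCGG as bound by Sp1, and TGACTCA as bound by AP-1. The matches are to letters only, whatever their distance from the start. No base lay in more than 1 match.
Prnp promoter: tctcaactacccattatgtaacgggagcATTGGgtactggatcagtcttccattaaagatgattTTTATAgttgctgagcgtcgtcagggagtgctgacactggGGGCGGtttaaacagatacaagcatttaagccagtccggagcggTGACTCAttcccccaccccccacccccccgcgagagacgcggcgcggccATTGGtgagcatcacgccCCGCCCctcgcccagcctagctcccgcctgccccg
Map1b promoter: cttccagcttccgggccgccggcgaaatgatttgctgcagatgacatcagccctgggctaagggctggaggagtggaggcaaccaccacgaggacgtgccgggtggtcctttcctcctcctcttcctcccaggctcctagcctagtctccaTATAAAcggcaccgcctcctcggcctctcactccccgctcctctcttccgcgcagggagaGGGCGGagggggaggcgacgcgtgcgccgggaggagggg
The Prnp stretch held the CCAAT box at 2 places, the Sp1 motif at 2 places, and the TATAAA letters and the AP-1 motif once each. The Map1b stretch held the TATAAA letters and the Sp1 motif once each, without a match to the CCAAT box or the AP-1 motif. The E-box letters CACGTG were in neither. Among 32851 promoters of the same length, the TATAAA letters were found in 12.4%, the CCAAT box in 33.8%, the Sp1 motif in 32.7%, the AP-1 motif in 4.46% and the E-box in 6.02%. GC content was 58.8% for Prnp and 66.4% for Map1b, against a median of 52.4% over all promoters.

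After filters, 136828 nuclei remained, 7601 to 10567 per library, with a median of 3642.5 to 6253 UMIs per nucleus. Clusters were named from marker genes, and 9 classes had enough nuclei in every library to be tested: microglia, astrocytes, oligodendrocytes and their precursors (OPCs), inhibitory neurons, CA1 and CA3 pyramidal neurons, dentate gyrus (DG) granule neurons, and the other excitatory neurons. Unnamed clusters held 6.35% to 18.0% of the nuclei of a library. Replicates 1 and 2 of every group stood apart from replicates 3 and 4 on the first principal component of the libraries' deviations from their group means, in all 16 libraries for 7 of the 9 classes. In inhibitory neurons only 9 of 16 libraries stood on their side, and in microglia 15. The labels give no batch, so values within each side of this split are given where they bear on a result. Because the split was read from these same libraries, calls gained with it as a term of the test are not separate support. Of 134477 distinct barcodes, 2321 occurred in more than 1 library. Ch25h had 8 to 36 UMIs in a Ch25h+/+ library and 10 to 30 in a library labelled Ch25h-/-, or 0.334 ± 0.204 against 0.399 ± 0.113 CPM (UMI counts scaled to the library total; SD, n = 8 each). The gene was thus no lower in the libraries labelled Ch25h-/-, and whether the counted 3' end lies outside the deleted part was not tested. Every statement on Ch25h below refers to the label.

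Levels are given as CPM of all UMIs of a class in a library, so that a level is a share of the class's own RNA. They compare a gene between classes and libraries but not one gene with another, because longer genes can collect more nuclear reads. A share is not a count per nucleus. Median UMIs per nucleus were 1448 in microglia, 1477.5 in oligodendrocytes, 2375.5 in astrocytes, 8585 in CA1 and 11917.5 in CA3 neurons. Mapt had 59087 UMIs in 17626 oligodendrocyte nuclei and 39742 in 7328 CA3 nuclei, so more per nucleus in CA3. The orders of classes below are by share and can differ from orders per nucleus. None of the 7 genes was among the 3000 variable genes used to cluster the nuclei. Because the classes are clusters of the same nuclei, levels between classes are described without a test. Neighbours in the order of classes are said to differ beyond their spread where the mean log2 difference within libraries exceeded its SD over the 16 libraries, which held for 32 of 56 pairs of neighbours.

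**Figure D1:**
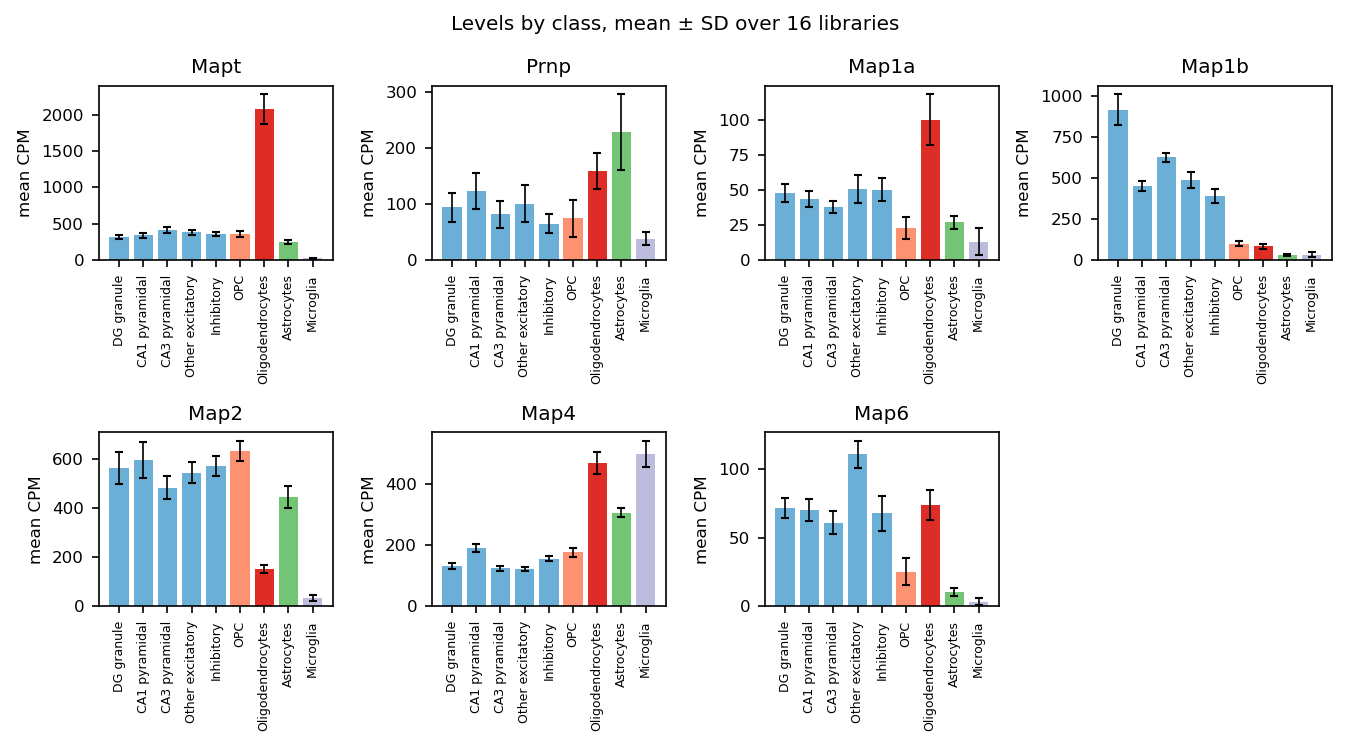
Mean CPM of each of the 7 genes (one panel per gene, linear axis from 0) in the 9 cell classes, with bars for the SD over 16 libraries. Oligodendrocytes had the highest bar for Mapt (2083 CPM) and Map1a, astrocytes for Prnp (228 CPM), DG granule neurons for Map1b and microglia for Map4.

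Prnp was highest in astrocytes. The 16 libraries gave 228 ± 67.6 CPM in astrocytes, 158 ± 32.1 in oligodendrocytes and 123 ± 32.7 in CA1 neurons (SD, n = 16), and each of these steps exceeded its spread. Below them came other excitatory neurons at 100.3, DG neurons at 93.9, CA3 neurons at 81.0, OPCs at 73.7, inhibitory neurons at 64.2 and microglia at 37.2 CPM. In this lower part of the order, other excitatory against DG neurons, CA3 neurons against OPCs, and OPCs against inhibitory neurons did not differ beyond their spread. The order was the same in Tau+ and Tau- libraries except for 1 pair: OPCs lay above inhibitory neurons with Tau+ (mean of 101 against 79.0 CPM) and below them with Tau- (46.6 against 49.4 CPM). The genes whose class pattern was most like that of Prnp were Klf9 (Pearson r of 0.963), Gpd2 (0.944) and Rhou (0.917), over 9 classes and among 10671 genes compared. These correlations rest on 9 classes of the same libraries and are a description.

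Mapt was highest by far in oligodendrocytes, at 2083 ± 204 CPM (SD, n = 16), and lowest in microglia (18.4 CPM), where it lay inside the range of neuron-only genes described below. The neuron classes were close together, from 413 CPM in CA3 to 381 in other excitatory, 360 in inhibitory, 336 in CA1 and 314 in DG neurons, and OPCs lay among them at 353 CPM. Inhibitory neurons against OPCs, and OPCs against CA1 neurons, did not differ beyond their spread. Astrocytes had 247 CPM. The gene most like Mapt over the classes was Gm11659 (r = 0.988), the gene that overlaps it on the other strand, so the same reads may stand behind both. Nfasc, which encodes a cell adhesion protein of axons and of the myelin junction beside nodes (0.984), and Mapk8ip1, a scaffold of JNK signalling (0.983), followed.

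The MAP1 genes differed from each other in where they were highest. Map1a was highest in oligodendrocytes (100.1 CPM), about 1 log2 unit above other excitatory neurons (mean difference of 0.98 ± 0.19, SD over 16 libraries), and lowest in microglia (12.8 CPM). Map1b was highest in DG neurons (913 CPM), then CA3 (623), other excitatory (486), CA1 (451) and inhibitory neurons (388), and each of these steps exceeded its spread. All 4 glial classes lay far below, from 97.3 CPM in OPCs and 82.8 in oligodendrocytes to 31.8 in microglia and 28.2 in astrocytes. The drop from inhibitory neurons to OPCs was 1.996 ± 0.245 on the log2 scale and was seen in 16 of 16 libraries.

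Map2, used as a neuronal marker protein, was highest in OPCs (631 CPM), next to CA1 neurons (594 CPM), and the difference of 0.09 ± 0.19 on the log2 scale did not exceed its spread. It was low in oligodendrocytes (152 CPM) and microglia (33.2 CPM). Map4 was highest in microglia (498 CPM) and oligodendrocytes (469 CPM), both low for Map2, with astrocytes at 307 CPM and other excitatory neurons lowest at 122 CPM. Microglia and oligodendrocytes did not differ beyond their spread for Map4. Map6 was highest in other excitatory neurons (111 CPM), 0.59 ± 0.19 log2 units above oligodendrocytes (73.9 CPM), and was near 0 in microglia (3.41 CPM).

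Transcripts released from broken cells can add counts of neuronal genes to glial nuclei, so glial levels were set beside those of 10 genes kept as neuron-only genes, each as a percentage of its level over all neurons. In astrocytes the 10 genes ranged from 1.67% to 27.6% (highest Syp, a synaptic vesicle gene) with a median of 5.85%. Prnp at 240.1%, Map4 at 211%, Map2 at 80.3%, Mapt at 69.1% and Map1a at 58.0% lay above that range, while Map6 (13.3%) and Map1b (4.83%) lay inside it. In oligodendrocytes, where the range was 2.31% to 48.1%, Mapt stood at 583%, Map4 at 324%, Map1a at 217%, Prnp at 166% and Map6 at 94.3%, all above it, with Map2 at 27.5% and Map1b at 14.2% inside. In OPCs the range was 1.76% to 35.1%, and Map4 (122%), Map2 (114%), Mapt (98.9%), Prnp (77.6%) and Map1a (49.0%) lay above it. In microglia the range was 2.29% to 35.5%; Map4 (343%) lay above it and Prnp at 39.2% was just above Syp, the highest of the 10, whereas Mapt, Map1b, Map2 and Map6 at 4.35% to 6.01% and Map1a at 27.7% lay inside. Map1a lay inside only through Syp, because the second highest of the 10 genes in microglia stood at 23.4%. The same held for Map2 in oligodendrocytes (second highest 22.2%). A place above the range does not set Prnp apart from RNA outside nuclei. That RNA, described below, held 377 CPM of Prnp, against 37.2 CPM in microglia and 228 CPM in astrocytes. Counts of Mapt, Map1a, Map1b, Map2, Map6 and Prnp in microglia are not read as expression by these cells, and their source was not tested.

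**Figure D2:**
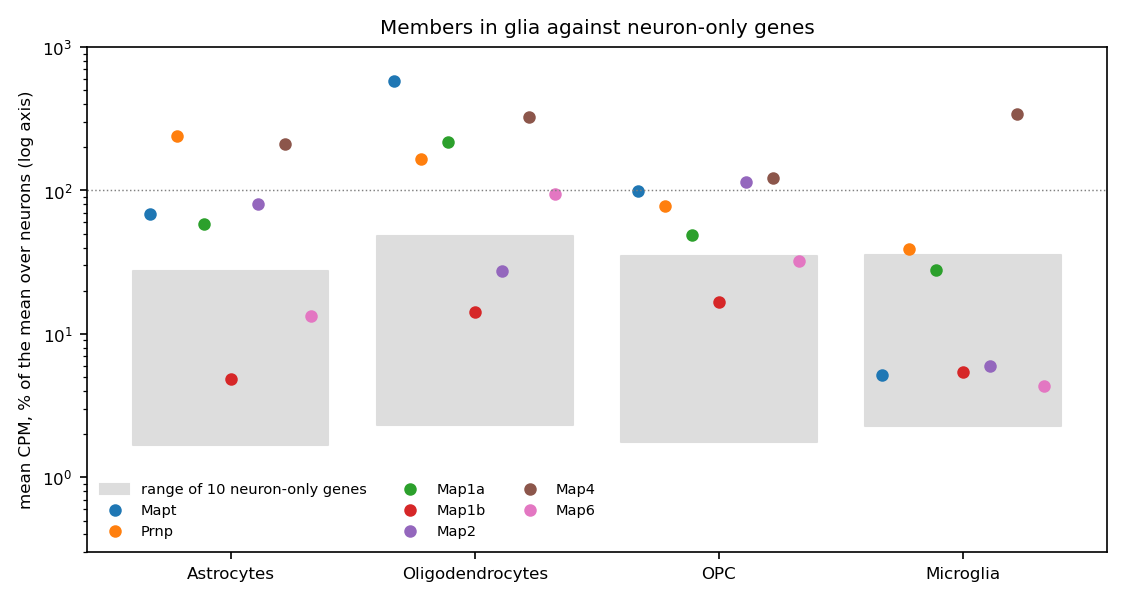
Mean CPM of each gene in 4 glial classes as a percentage of its mean over neurons (log axis), with the range of 10 neuron-only genes as a grey box. In oligodendrocytes Mapt stands at 583%, and Map1b lies inside the grey range in all 4 classes.

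The RNA outside nuclei, read in barcodes under 100 UMIs, held all 7 genes. Prnp made up 381 ± 113 CPM of it in Tau+ libraries and 373 ± 90 CPM in Tau- libraries (SD, n = 8 each), so that both sets had similar levels and their ranges overlapped (213 to 541 against 228 to 472 CPM). Mapt made up 276 ± 24.1 against 216 ± 19.5 CPM, Map1b 334 ± 36.7 against 446 ± 129 CPM and Map1a 80.2 ± 20.4 against 126 ± 61.4 CPM. Free RNA was thus richer in Prnp than any of the 9 classes of nuclei. Its part in the class values was not tested.

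The main comparison asked which of the 7 genes differed between Tau+ and Tau- libraries within a cell class, over both Ch25h labels (8 against 8 libraries). Prnp was higher in Tau+ libraries in DG, CA1, CA3 and inhibitory neurons and in OPCs, by 1.58 to 2.16 times, and no other member passed the test in any class. That made 5 of 62 tested pairs of gene and class called at an adjusted p under 0.05 by edgeR's quasi-likelihood test with Benjamini-Hochberg adjustment over all genes of the class. Of all 117236 tests in the 9 classes, 1.06% were called, and 0.712% were called higher. Of these 1246 calls, 759 were in microglia and 418 in astrocytes, where Prnp was not called. The 5 pairs are 1 gene in 5 classes of the same libraries and are not independent results. Map1a in microglia came nearest among the others (-1.20, adjusted p = 0.0510), and passed by DESeq2 (0.0420), without Ch25h+/+ Tau+ replicate 1 (0.0430) or 3 (0.0481) and without Ch25h-/- Tau- replicate 1 (0.0378) or 3 (0.0205). It also passed with no filter on low counts (0.0263), with high doublet scores kept (0.0369) and with the split of the libraries as a term (0.0336), and not in replicates 1 and 2 alone (0.0992). These values rest on 0 to 13 UMIs per library, and the gene passed the filter on low counts only through 5 Tau- libraries, where it is high, so they are given as a description. The remaining pair, Map6 in microglia, did not pass the filter on low counts.

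In DG granule neurons Prnp ranged from 107 to 142 CPM with a median of 115 in the 8 Tau+ libraries, and from 54.2 to 83.0 CPM with a median of 73.97 in the 8 Tau- libraries. Every Tau+ library lay above every Tau- library. The log2 fold change was 0.70 (SE 0.09, adjusted p = 0.000543), in a class where 0.0662% of genes were called. In CA1 neurons the Tau+ libraries ranged from 124 to 182 CPM (median 149) and the Tau- libraries from 72.9 to 115 CPM (median 97.4), and the groups did not overlap. The change was 0.67 (SE 0.09, adjusted p = 0.00158; 0.0597% of genes called). In CA3 neurons the ranges were 84.3 to 123 CPM (median 98.8) with Tau+ and 48.1 to 71.4 CPM (median 59.3) with Tau-. These groups too were fully apart, with a log2 change of 0.79 (SE 0.09, adjusted p = 0.000164; 0.0903% of genes called).

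Inhibitory neurons, a class set apart from the excitatory neurons by its GABA-making enzymes, gave 71.7 to 90.3 CPM (median 78.0) in Tau+ and 40.9 to 60.7 CPM (median 48.1) in Tau- libraries. No Tau+ library fell among the Tau- libraries, and the log2 change was 0.66 (SE 0.09, adjusted p = 0.00174; 0.0266% of genes called). Other excitatory neurons gave 109 to 158 CPM (median 122) against 49.1 to 94.4 CPM (median 72.9). Here the libraries did not overlap either, but the log2 change of 0.78 had a wider error (SE 0.13) and missed the threshold (adjusted p = 0.0627; 0.0253% of genes called). It passed without Ch25h+/+ Tau- replicate 3 (adjusted p = 0.0122), without Ch25h-/- Tau- replicate 4 (adjusted p = 0.0408), by DESeq2 (1.74e-05), with the split of the libraries as a term (adjusted p = 6.83e-05) and in replicates 1 and 2 alone (9.15e-05), and not in replicates 3 and 4 alone (0.0692).

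OPCs, the dividing cells that give rise to oligodendrocytes, had the highest ratio of means over all 16 libraries, 2.16. On the sides of the split the ratio was 1.78 in replicates 1 and 2, below the 2.002 of other excitatory neurons there, and 2.54 in replicates 3 and 4, and no difference between OPCs and a neuron class passed the test given below. Prnp ranged from 66.1 to 145 CPM (median 95.4) in Tau+ and from 31.0 to 57.0 CPM (median 50.05) in Tau- libraries, and the groups did not overlap. These values rest on few molecules, from 122 to 339 UMIs per group of 4 libraries. The log2 change was 1.08 (SE 0.15, adjusted p = 0.000162), where 0.223% of genes were called. The summed level of the 10 neuron-only genes in the same OPC nuclei was 1077 ± 78.0 CPM with Tau+ and 1128 ± 111 CPM with Tau- (SD, n = 8 each), and 3 of the 10 had a higher mean in Tau+ libraries. This sum covers 10 chosen genes and does not measure how much neuronal Prnp RNA reaches OPC nuclei. Of 9 oligodendrocyte markers 7 had a higher mean in Tau+ OPCs, with summed levels of 176 to 264 CPM against 138 to 251 CPM. In other classes this count was 8 of 9 in CA1 neurons, 7 of 9 in each of CA3, DG and inhibitory neurons and astrocytes, and 6 of 9 in other excitatory neurons and microglia. The parts of neuronal and of oligodendrocyte RNA in these Prnp values were not tested.

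Mature oligodendrocytes, the myelinating cells, showed a smaller difference, and the groups overlapped. Tau+ libraries ranged from 159 to 232 CPM (median 179) and Tau- libraries from 111 to 179 CPM (median 133), with 4 of 8 Tau+ libraries above the highest Tau- library. The log2 change of 0.45 (SE 0.10) missed the threshold (adjusted p = 0.0601; 0.0718% of genes called). It passed without Ch25h+/+ Tau- replicate 3 (adjusted p = 0.0326), by DESeq2 (0.0112), with the split as a term (0.00459), with no filter (0.000379), with 1000 UMIs per nucleus (0.0399) and in replicates 1 and 2 alone (0.0246). Its adjusted p was 0.196 in replicates 3 and 4 alone, and 0.165 when a cluster of 5203 nuclei led by Enpp6, kept out of this class, was put back.

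Astrocytes and microglia did not pass the test. Astrocytes ranged from 153 to 286 CPM (median 212) with Tau+ and from 154 to 374 CPM (median 220.4) with Tau-, with a log2 change of -0.24 (SE 0.20, adjusted p = 0.669; 3.26% of genes called). On the sides of the split, replicates 1 and 2 gave 184 ± 36.9 against 175 ± 20.5 CPM, and replicates 3 and 4 gave 241 ± 40.9 against 313 ± 57.5 CPM (Tau+ against Tau-, SD, n = 4 each). Microglia ranged from 27.3 to 48.2 CPM (median 37.4) against 19.1 to 61.2 CPM (median 39.1), with a log2 change of -0.11 (SE 0.21, adjusted p = 0.841; 8.99% of genes called). The sign in both classes changed between the sides of the split, so no direction is read from them. In the 5 called classes Prnp remained called in each of the 24 alternatives run, including replicates 1 and 2 alone and replicates 3 and 4 alone.

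**Figure D3:**
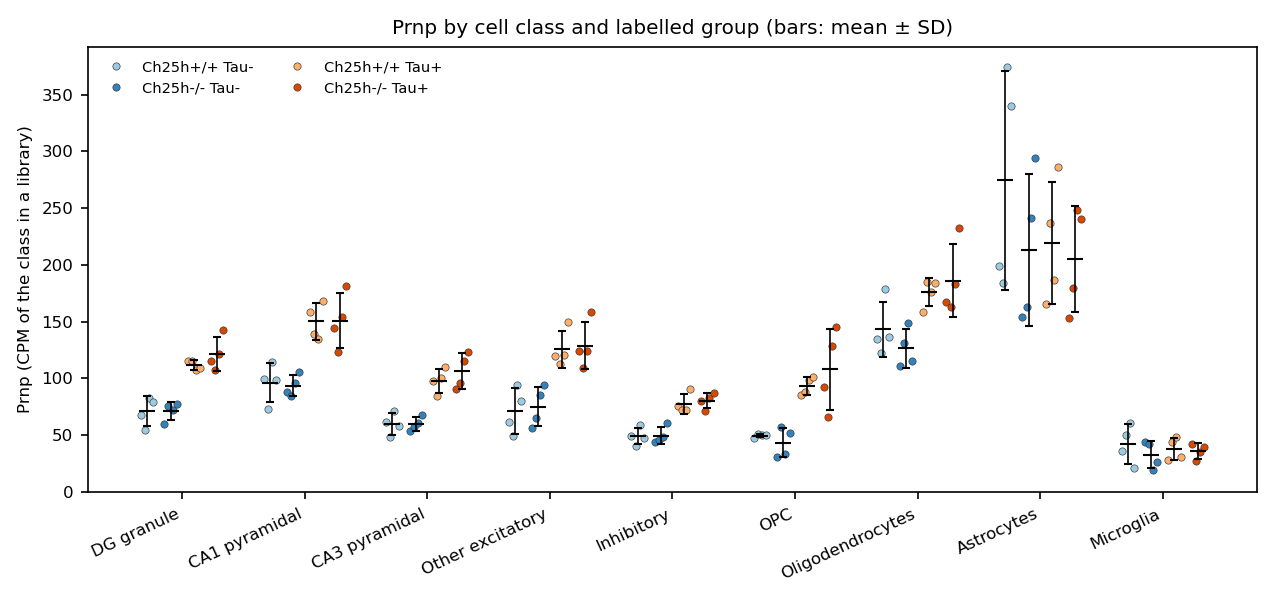
Prnp in CPM by cell class and labelled group; each point is 1 library, 4 per group, and bars give the mean ± SD. In the 5 neuron classes and in OPCs every Tau+ point lies above every Tau- point, and in astrocytes and microglia the groups overlap.

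Counted without a test, the 8 Tau+ and 8 Tau- libraries did not overlap for Prnp in 6 of 9 classes and for each other member in 0 of 9. Of all pairs of gene and class 0.171% did not overlap in either direction, and 0.123% did not overlap with Tau+ higher.

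Whether the Prnp difference itself depended on the class was tested by comparing classes within libraries, with tau labels permuted within each Ch25h label (exact permutation test, two-sided, 4900 arrangements, 36 pairs of classes with Benjamini-Hochberg adjustment). It differed in 12 of the 36 pairs. The smallest p the design allows is 0.000408. Astrocytes differed from every neuron class, OPCs and oligodendrocytes: the difference was -0.82 log2 units to CA1, -0.83 to inhibitory, -0.87 to DG, -0.92 to CA3 and -0.97 to other excitatory neurons and -1.25 to OPCs (adjusted exact permutation p = 0.00245 each), and -0.59 to oligodendrocytes (adjusted exact permutation p = 0.0120). OPCs exceeded oligodendrocytes by 0.66 (adjusted p = 0.00630, exact permutation test) and microglia lay below OPCs, with a difference of -1.03 (adjusted p = 0.00918, exact permutation test). Oligodendrocytes had a smaller change than CA3 neurons (0.34 apart), DG neurons (0.29 apart) and other excitatory neurons (-0.39). No pair of neuron classes passed, which does not show that their changes were equal.

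**Figure D4:**
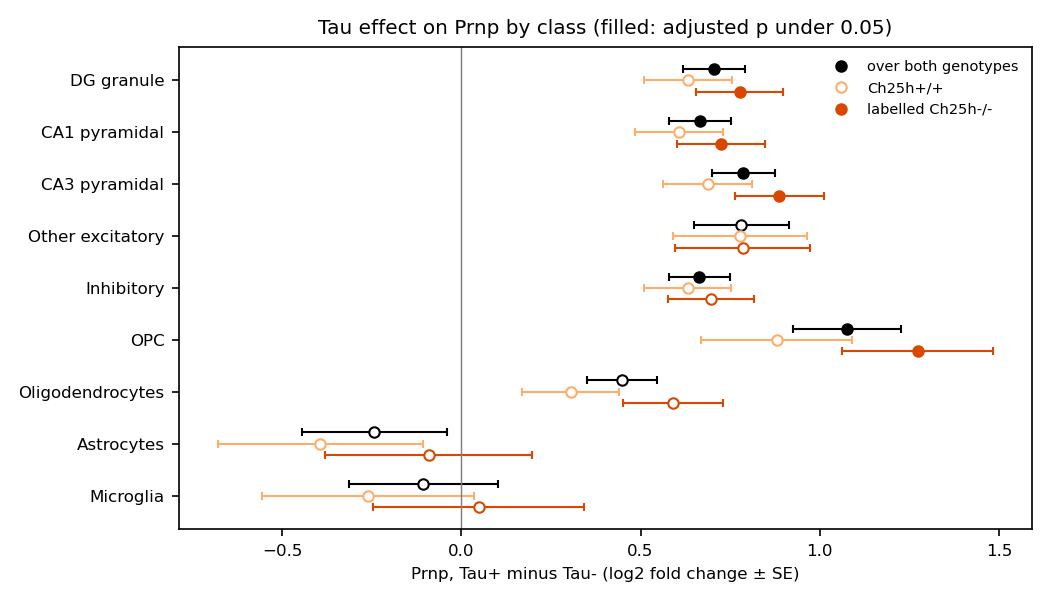
Log2 fold change of Prnp between Tau+ and Tau- libraries by cell class from edgeR, over both labels and within each, with bars for the SE and filled points for an adjusted p under 0.05. Over both labels the 5 neuron classes and OPCs lie above 0, OPCs highest at 1.08, and astrocytes and microglia lie below 0 with an SE of 0.20 or more.

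Within each Ch25h label the tests had 4 against 4 libraries. In Ch25h+/+ libraries 1 of 62 pairs was called (0.239% over all genes and classes). This pair was Map1a in microglia, which rests on very few molecules and is given below as a description. In the libraries labelled Ch25h-/- 4 of 62 were called (0.163%). The 4 were Prnp in DG neurons (0.78, adjusted p = 0.0125), CA1 neurons (0.72, 0.0260), CA3 neurons (0.89, 0.00447) and OPCs (1.27, 0.00450). Prnp in Ch25h+/+ libraries was called in 0 of 9 classes by edgeR, with 7 at an unadjusted p under 0.05 (6.66% of all tests) and 4 called by DESeq2. Its mean there was 1.57 times higher with Tau+ in DG neurons (112 ± 4.37 against 71.1 ± 13.05 CPM), 1.56 times in CA1 neurons (150.2 ± 15.9 against 96.4 ± 17.3 CPM), 1.64 times in CA3 neurons (98.0 ± 10.7 against 59.7 ± 9.64 CPM) and 1.88 times in OPCs (93.5 ± 7.67 against 49.7 ± 1.62 CPM; SD, n = 4 each). The Ch25h+/+ groups did not overlap in any of these 4 classes. This is a description, because the share of all genes without overlap was not counted for 4 against 4 libraries. With the split of the libraries as a term 7 pairs were called in Ch25h+/+ libraries, Map1a in microglia among them, and 7 in those labelled Ch25h-/-. The 0.239% and 0.163% above belong to the fit without this term, and no share is given for the fit with it. The test of the difference between the Ch25h labels called 0 of 62 pairs (0% over all genes and classes), with 4 at an unadjusted p under 0.05 (4.11% of all tests) and 0 called by DESeq2. The Prnp term of this test was between 0.01 and 0.39 in the 9 classes, with a lowest adjusted p of 0.957. Among the called classes, the call in CA1 neurons labelled Ch25h-/- was lost without Tau+ replicate 1 (adjusted p = 0.0689), 3 (0.137) or 4 (0.0578) or Tau- replicate 3 (0.122) of that label. The call in DG neurons was lost without Tau+ replicate 4 (0.0659) or Tau- replicate 1 (0.0613) or 3 (0.0689) of that label. The calls in OPCs (0.81, adjusted p = 0.306) and CA1 neurons (0.63, adjusted p = 0.216) with this label were lost in replicates 1 and 2 alone, 2 against 2 libraries. Inhibitory neurons with this label passed by DESeq2 (0.000517), with no filter (0.0229), with the split as a term (0.00547) and without Ch25h+/+ Tau- replicate 3 (0.0359) or Ch25h-/- Tau- replicate 4 (0.0123), and CA3 neurons of Ch25h+/+ libraries passed without Ch25h+/+ Tau- replicate 3 (0.0130) and in 5 of 8 other alternatives (lowest adjusted p of 0.00111).

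Mapt itself passed the test in 0 of 9 classes, by edgeR (3 at an unadjusted p under 0.05, against 10.4% of all tests) and by DESeq2. In oligodendrocytes, where it was highest, the Tau+ libraries ranged from 1837 to 2285 CPM (median 2184) and averaged 2107 ± 178 CPM against 2058 ± 236 CPM in Tau- libraries (SD, n = 8 each). In DG neurons the means were 330 ± 29.3 against 297 ± 23.8 CPM and in OPCs 374 ± 29.8 against 333 ± 42.8 CPM, with overlapping libraries in both. The log2 changes over the 9 classes lay between -0.17 and 0.15 with a median of 0.10, and the lowest adjusted p was 0.411. In the libraries labelled Ch25h-/- they were 0.10 to 0.28 in all 9 classes (lowest adjusted p of 0.193), and in Ch25h+/+ libraries -0.51 to 0.11. The interaction was called in 0 of 9 classes (lowest adjusted p of 0.883), with 3 at an unadjusted p under 0.05 by edgeR (4.11% of all tests) and 0 called by DESeq2.

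**Figure D5:**
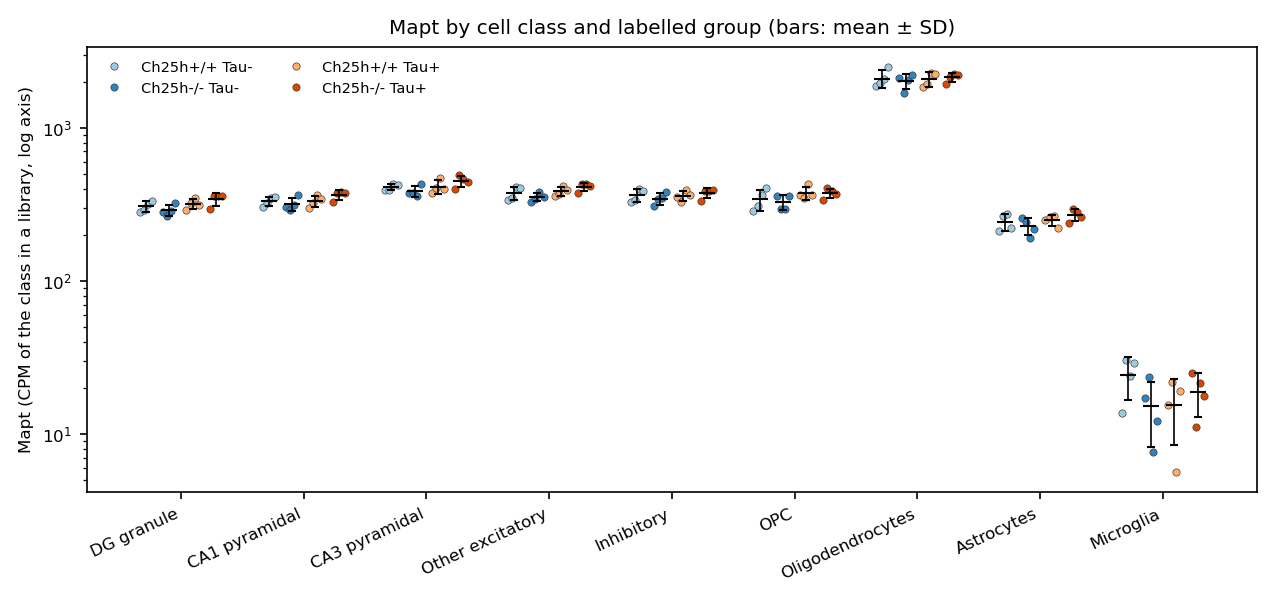
Mapt in CPM (log axis) by cell class and labelled group; each point is 1 library, 4 per group, and bars give the mean ± SD. Oligodendrocytes stand apart at about 2083 CPM, and in every class the 8 Tau+ and 8 Tau- points overlap.

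Summed over all nuclei, where values also move with the mix of classes, other members were called too. Prnp (0.55, SE 0.10, adjusted p = 0.00968), Map2 (-0.22, SE 0.05, adjusted p = 0.0253) and Map1b (-0.23, SE 0.06, adjusted p = 0.0483) were called, 3 of 7 members where 4.63% of all genes were called. Mapt gave 458 ± 44.2 against 388 ± 29.7 CPM (log2 change of 0.18, SE 0.06, adjusted p = 0.0750). By label it was 435 ± 39.1 against 410 ± 25.2 CPM in Ch25h+/+ libraries and 481 ± 40.3 against 366 ± 13.8 CPM in those labelled Ch25h-/- (SD, n = 4 each), where its log2 change of 0.37 was called (SE 0.08, adjusted p = 0.0435; 0.762% of genes called). The interaction of 0.38 (SE 0.11) was not called (adjusted p = 0.791). Beside these values, named neurons made up 47.8 ± 3.05% of the nuclei of Tau+ libraries and 56.3 ± 2.57% of Tau- libraries. Oligodendrocytes, the class with the highest share of Mapt in its RNA, made up 15.2% and 10.6%. In the libraries labelled Ch25h-/- oligodendrocytes made up 16.4 ± 2.77% with Tau+ and 8.84 ± 3.99% with Tau-. These oligodendrocyte shares leave out the cluster of 5203 nuclei led by Enpp6 that was kept out of the class. A change in the mix of nuclei and a change in RNA per nucleus cannot be told apart in the sums, and in no class were Mapt, Map2 or Map1b called. Within classes the log2 change with Tau+ was below 0 for Map2 in 9 of 9 and for Map1b in 8 of 9. For Mapt it was above 0 in 8 of 9. The classes come from the same libraries, so these signs are not independent.

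The Prnp sum over both labels stayed called in each of the 24 alternatives, and the sums of the other members did not. The Map1b call was lost with RLE scaling (0.0514), with high doublet scores kept (0.0529), in replicates 1 and 2 alone (0.106) and in replicates 3 and 4 alone (0.278). With 1 library left out it held only without Ch25h+/+ Tau+ replicate 3, Ch25h+/+ Tau- replicate 2, or Tau- replicate 1 or 2 of the Ch25h-/- label; leaving out any other library gave an adjusted p between 0.0546 and 0.105. The Map2 call was lost without Ch25h+/+ Tau+ replicate 1 (0.0586) or 2 (0.0565) or without Ch25h-/- Tau+ replicate 2 (0.0509), in replicates 1 and 2 alone (0.0634) and in replicates 3 and 4 alone (0.315). The Mapt call in the libraries labelled Ch25h-/- was lost without any of 11 of the 16 libraries, with an adjusted p between 0.0507 and 0.140, with no filter (0.0511) and in replicates 1 and 2 alone (0.625). It held without Ch25h+/+ Tau+ replicate 1 or 3, Ch25h+/+ Tau- replicate 4, Ch25h-/- Tau+ replicate 1 or Ch25h-/- Tau- replicate 1. Mapt over both labels passed without Ch25h+/+ Tau+ replicate 1 (0.0331), Ch25h+/+ Tau- replicate 4 (0.0474) or Ch25h-/- Tau+ replicate 1 (0.0290), by DESeq2 (0.0404) and with the split as a term (0.0423).

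Of the other members, Map1a in microglia was the only pair called in Ch25h+/+ libraries, and it is a pair of very few molecules. The 4 Tau+ libraries had 2 to 9 UMIs each and 5.54 ± 2.83 CPM, and the 4 Tau- libraries 6 to 10 UMIs each and 25.5 ± 5.95 CPM (SD, n = 4 each). The log2 change with Tau+ was -2.13 (SE 0.54, adjusted p = 0.0359), in a comparison where 2.19% of genes were called. The 5 Tau- libraries through which it passed the filter are the 4 of Ch25h+/+ and replicate 2 of Ch25h-/-, so this call too is a description. In the libraries labelled Ch25h-/- the values were 9.91 ± 3.55 against 10.2 ± 10.3 CPM, with a log2 change of -0.27 (adjusted p = 0.906). The Ch25h+/+ call was lost without any of the 4 Tau- libraries, without Tau+ replicate 1, 2 or 4, or without Ch25h-/- Tau+ replicate 2 (adjusted p of 0.0520 to 0.119), and in replicates 1 and 2 alone (0.154). Without Ch25h-/- Tau- replicate 2 the gene did not pass the filter on low counts. Map1a lies inside the range of neuron-only genes in this class, between Syp and the second highest of them. One of the neuron-only genes, Nrgn, was also lower in microglia of Tau+ libraries (-1.02, adjusted p = 0.0144), and 9 of the 10 had a lower mean with Tau+ over both labels. Their summed level was 981 ± 161 CPM with Tau+ and 1088 ± 349 CPM with Tau- (SD, n = 8 each), and in Ch25h+/+ libraries 979 ± 216 against 1162 ± 402 CPM (SD, n = 4 each). In the RNA outside nuclei Map1a had a lower mean with Tau+ too, with overlapping ranges (49.8 to 106 against 73.4 to 243 CPM). The part of neuronal and free RNA in the Map1a value was not tested.

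Map1b, Map2, Map4 and Map6 passed edgeR's test in no class under any of the 7 comparisons. In the tau comparison over both labels they had 2, 4, 1 and 0 classes at an unadjusted p under 0.05, of 9, 9, 9 and 8 tested. Of all tests in the 9 classes 10.4% were at that p. In DG neurons Map1b gave 896 ± 73.1 CPM with Tau+ and 930.2 ± 115 CPM with Tau-. Its largest difference between tau states was in oligodendrocytes, -0.36 in mean log2(CPM + 1), and its lowest adjusted p by edgeR over the 9 classes was 0.181. In CA1 neurons Map2 gave 553 ± 58.1 against 635 ± 65.6 CPM, and in microglia Map4 gave 520 ± 29.2 against 475.7 ± 45.8 CPM (SD, n = 8 each). In other excitatory neurons Map6 gave 107 ± 8.38 against 115 ± 10.5 CPM. The Tau+ and Tau- libraries overlapped in each of these.

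No member was called for the Ch25h label. Over both tau states 0 of 62 pairs were called by edgeR (0.0128% over all genes and classes), with 2 at an unadjusted p under 0.05, against 2.75% of all tests. In Tau- libraries 0 were called (0.00341%), with 3 at an unadjusted p under 0.05 (3.32% of all tests). In Tau+ libraries 0 were called (0.00512%), with 1 at an unadjusted p that low (3.25% of all tests). DESeq2 also called 0 in each. For Prnp the log2 differences over both tau states lay between -0.21 and 0.07 with a largest SE of 0.21, and for Mapt between -0.19 and 0.04. The comparisons by tau state and by Ch25h label share libraries and are not independent.

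The rest of the microtubule machinery gave few calls in the tau comparison over both labels. By edgeR 0 were called among the prion protein relatives Prnd and Sprn (5 tests over the 9 classes, 0 at an unadjusted p under 0.05), 14 further structural microtubule-associated proteins (94 tests, 23 at that p, against 10.4% of all tests in the 9 classes), the doublecortin family (30 and 4), severing enzymes (44 and 1), tubulin modifying enzymes (120 and 7) and axonal motors (97 and 7). The stathmins, which bind free tubulin, had 0 called of 33 tests and 15 at an unadjusted p under 0.05, with medians below 0 in all 9 classes. These lists were not run through DESeq2. Among collapsin response mediator proteins, which regulate axon growth, 1 of 37 tests was called: Dpysl3 rose in astrocytes, from 7.31 ± 2.02 to 13.9 ± 4.63 CPM (0.89, adjusted p = 0.0254). Of 119 tests of proteins at microtubule ends, Dst, a linker of filaments, rose in astrocytes (0.40, adjusted p = 0.0145) and Mapre2, an end-binding protein, rose in microglia (0.41, adjusted p = 0.0424). Of 88 tests of tubulins, Tuba4a fell in astrocytes (-0.69, adjusted p = 0.0456), and 33 were at an unadjusted p under 0.05, with medians below 0 in all 9 classes (-0.36 to -0.04), as for the stathmins. The 10 neuron-only genes had 25 of 86 tests at that p, with medians from -0.32 in microglia to 0.02 in CA3 neurons, and 2 were called lower, Nrgn in microglia and Syp in astrocytes (-0.41, adjusted p = 0.0379). All these calls lie in astrocytes and microglia, the classes where 3.26% and 8.99% of all genes were called. The median log2 change of a list within a class ran from -0.44 to 0.54 over the lists, beside medians over all genes near 0. In the Ch25h comparison over both tau states edgeR called 0 genes of these lists, with 0 to 3 tests per list at an unadjusted p under 0.05 (2.75% of all tests).

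The neighbours of Prnp on the chromosome gave counts near the share over all tests. Of 16 other genes within 500 kb of Prnp, 0 of 74 tests were called by edgeR (1.06% over all genes and classes), with 8 at an unadjusted p under 0.05 (10.4% over all), and their median log2 change lay between -0.21 and 0.04 in the 9 classes. Of 14 genes within 500 kb of Mapt, 0 of 59 tests were called (6 at that p), with medians between -0.04 and 0.02.

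Smaller classes gave sums per group without a test. Cajal-Retzius cells, early-born neurons of the outer layer (516 nuclei, 145 Prnp UMIs), had 111 CPM of Prnp with Tau+ and 82.5 with Tau- in Ch25h+/+ libraries, and 157 against 128 CPM in those labelled Ch25h-/-. Ependymal cells (687 nuclei, 302 UMIs) had 159 against 113 CPM and 214 against 111 CPM in the same order. Fibroblasts (2977 nuclei, 490 UMIs) had 70.3 against 72.6 CPM and 67.0 against 71.9 CPM, and choroid plexus cells (2172 nuclei, 325 UMIs) 35.5 against 29.8 CPM and 35.3 against 34.8 CPM. Mural cells, which wrap small vessels (454 nuclei, 67 UMIs), had 104 against 62.8 CPM and 105 against 63.6 CPM. Endothelial cells (345 nuclei, 70 UMIs) had 80.7 against 90.7 CPM and 114 against 67.6 CPM, and border-associated macrophages (350 nuclei) had too few Prnp UMIs to compare, 19 in all. The sums with Tau+ were thus higher under both labels in Cajal-Retzius, ependymal, mural and choroid plexus cells, by little in the last with the Ch25h-/- label. They were slightly lower under both labels in fibroblasts and of opposite order under the labels in endothelial cells. Nuclei per library varied widely, from 2 to 93 in ependymal, 5 to 73 in mural and 0 to 293 in choroid plexus cells. Few libraries can therefore set a sum, and no direction is read from these classes. Over all groups Mapt was highest of these classes in Cajal-Retzius cells (282 CPM) and lowest in choroid plexus cells (12.9 CPM), and Map2 followed the same top class (746 CPM).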

How the data were processed

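Nuclei of mouse hippocampus were profiled with a 10x Genomics 3' kit (version 3.1, per the labels' protocols), 1 library per sample. The deposited values are UMI counts per gene and barcode, unfiltered by barcode; the authors made them with Cell Ranger 3.1.0 on the mm10 build, per the submitters' processing notes, while the file headers name version 4. Intron and strand settings are not given in the sources used here. Groups come from the genotype label; replicate numbers only follow the order of the samples, and nothing pairs them.

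Barcodes with at least 500 UMIs, at least 300 genes and at most 5% mitochondrial UMIs were kept, and 11045 of 147873 with high doublet scores were removed. Nuclei were clustered with scanpy 1.11.5 (3000 variable genes, none of the 7 members among them) and clusters were named from marker lists, with at least 3 markers needed. Of 64 clusters 26 stayed unnamed: 14 for high doublet scores, 5 for too few markers and 2 for a tie between classes. Another 4 had leading genes that went against the name, and 1 had more leading markers of another class. The genes held against a name were chosen after the clusters were seen. Libraries held 51270831 to 84870650 UMIs in all barcodes. Counts were summed per library and class and tested with edgeR 4.0.16 in R 4.3.3 (TMM scaling, filterByExpr, quasi-likelihood, 1 mean per group, Benjamini-Hochberg over all genes of a class and comparison, called under 0.05). The test was checked on simulated counts. Class differences in Prnp used log2(CPM + 1) and an exact permutation test. The labels name no separate animals, so p-values measure the spread between these libraries. Library number, and UMIs per class, limit the precision.

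Alternatives were DESeq2 1.42.0, RLE scaling, no filter, 1000 UMIs per nucleus, high doublet scores kept, the split of the libraries, each library left out and, chosen after seeing the data, a cluster put back into the oligodendrocytes. The members, gene lists, marker lists and tests were chosen with earlier results of these data known. Named genes are the 7 members, up to 4 called genes per list by adjusted p, and the 3 genes most like Mapt and Prnp.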

Additional observations from a re-analysis of the deposited data

Results flagged for a closer look

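In 8 of 252 groups of 4 libraries (3.17%) 1 library lay apart from the other 3 by Dixon's test at the 95% level, for which chance gives about 1 group in 20. The library Ch25h-/- Tau+ replicate 1 was low for Mapt in DG neurons (293 CPM, the others 357 to 360 CPM) and in inhibitory neurons (332 CPM, the others 385 to 394 CPM). Ch25h+/+ Tau+ replicate 3 was high for Mapt in OPCs (430 CPM, the others 348 to 361 CPM) and for Map1a in oligodendrocytes (102 CPM, the others 83.7 to 86.7 CPM). Ch25h-/- Tau+ replicate 3 was low for Map2 in astrocytes (379 CPM, the others 469 to 484 CPM). Map4 was high in CA3 neurons of Ch25h+/+ Tau- replicate 4 (129.7 CPM, the others 116 to 117 CPM) and in other excitatory neurons of Ch25h-/- Tau- replicate 4 (135 CPM, the others 118 to 119 CPM). Map6 in microglia was 7.28 CPM in Ch25h-/- Tau- replicate 2 and 0 in the other 3 libraries of the group. No Prnp value lay apart in this way.

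The difference in Prnp between Tau+ and Tau- libraries itself differed in 12 pairs of classes (exact permutation test, adjusted over 36 pairs). On the log2 scale it was smaller in astrocytes than in CA1 (-0.82), CA3 (-0.92), DG (-0.87), inhibitory (-0.83) and other excitatory neurons (-0.97), OPCs (-1.25) and oligodendrocytes (-0.59). It was larger than in oligodendrocytes in CA3 neurons (0.34), DG neurons (0.29) and OPCs (0.66), smaller in oligodendrocytes than in other excitatory neurons (-0.39), and smaller in microglia than in OPCs (-1.03).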

How the results depend on the processing

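Prnp stayed called, and higher with Tau+, in DG, CA1, CA3 and inhibitory neurons and OPCs under every alternative run. Over both labels the count of called pairs of gene and class rose from 5 to 8 with DESeq2 and to 8 with the split of the libraries as a term, and was 5 to 7 with 1 library left out. Both counts of 8 include Map1a in microglia, which is given only as a description. In Ch25h+/+ libraries the count of 1, Map1a in microglia, became 5 with DESeq2, 4 with no filter, 0 with 1000 UMIs per nucleus, 2 with high doublet scores kept, 7 with the split as a term and 2 in replicates 1 and 2 alone, and 0 to 1 with 1 library left out. The 5 with DESeq2 and the 7 with the split include this pair, a description. With the Ch25h-/- label the count went from 4 to 7 with the split as a term, and to 2 to 5 with 1 library left out, 2 without Tau+ replicate 4 or Tau- replicate 3. The shares over all genes given above belong to the main setting. No share is given for the alternatives, so a rise in these counts cannot be set against one. Over all nuclei, 3 called members became 1 in replicates 1 and 2 alone and 1 in replicates 3 and 4 alone, and 1 to 3 with 1 library left out. DESeq2 and the split as a term lost none of the 3 and added Mapt. Pairs of classes in which the Prnp difference differed numbered 12 to 18, and the 12 reported were kept in each alternative.

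Uncalled Prnp values changed sign. In astrocytes over both labels the log2 change was 0.00781 in replicates 1 and 2 alone, and in microglia 0.0306 with 1000 UMIs and 0.224 in replicates 3 and 4 alone. With the Ch25h-/- label, astrocytes gave 0.0188 in replicates 1 and 2 alone and -0.225 to 0.119 with 1 library left out. Microglia gave -0.344 in replicates 1 and 2 alone and -0.0877 to 0.187 with 1 library left out. The cause was not tested. Few UMIs limit values in microglia and OPCs. No paired analysis was possible because the labels give no replicate numbers.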
